A study of Mus musculus with 12 samples.

Results

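The transcriptomes of mouse bone marrow cells carrying 1 of 2 leukemia oncogenes were compared directly: CSF3R T618I alone against CEBPA V314VW alone. The 6 libraries were chosen by their labels only, 3 transduced with CSF3R T618I and 3 with CEBPA V314VW, out of 12 libraries in the series. The cells of all groups came from the marrow of C57BL/6 mice, which were young adults by the study's methods. During retroviral transduction they were cultured in DMEM with FBS, conditioned medium of WEHI cells and the cytokines SCF, IL-6 and IL-3. Lineage-negative cells positive for the GFP and red fluorescent markers of the vectors were then sorted and frozen. The remaining libraries carried both mutants or empty vector only, with 3 of each, and enter here as a shared estimate of the spread and as side-by-side values. The expression of both oncogenes came from a retroviral promoter and not from the cell's own gene, and the cells were mixtures of transduced progenitors and not single clones. The replicates are lettered A, B and C, and the labels do not tie equal letters to one animal.

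CSF3R binds granulocyte colony-stimulating factor, the cytokine that drives neutrophil production, and signals through JAK kinases and STAT transcription factors. T618I lies next to the membrane and activates the receptor without its ligand. CEBPA is a leucine zipper transcription factor that opens the granulocyte program in progenitors, and V314VW is an insertion in its C-terminal part, where acute myeloid leukemia mutations disturb DNA binding and dimerization. The comparison therefore sets a receptor mutation that signals for neutrophil production against a transcription factor mutation that disturbs it.

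The libraries held 50875519 to 67431235 counts with CSF3R T618I and 46573981 to 47631590 counts with CEBPA V314VW. In a principal component analysis of the 500 most variable genes over the 12 libraries, the first component took 56.5% of the variance and had the 6 libraries at its ends, from 48 to 56.5 for CSF3R T618I and from -51.2 to -49.6 for CEBPA V314VW. Empty vector libraries, at -0.119 to 5.6, and libraries with both mutants, at -3.85 to -2.75, lay between them on that component. Replicates of CSF3R T618I varied more than those of CEBPA V314VW, with a common biological coefficient of variation of 0.266 against 0.138. It was 0.0455 with both mutants and 0.146 with empty vector. Over all 12 libraries, which share 1 estimate of the spread, it was 0.166 and so below that of CSF3R T618I. The share of mitochondrial counts was 0.887%, 0.601% and 0.295% in replicates A, B and C of CSF3R T618I, against 0.605%, 0.414% and 0.435% with CEBPA V314VW. The slope of expression on log2 transcript length also differed among the CSF3R T618I replicates, at -0.213, -0.133 and 0.0839 for A, B and C, against -0.0313, 0.0676 and 0.0846 with CEBPA V314VW. The part of either measure in the results below was not tested, other than by taking out the length trend and by leaving out each library. The sorted population held Kit, the stem cell factor receptor, at 24.2, 41.1 and 77.2 CPM with CSF3R T618I and 82.7, 159 and 144 CPM with CEBPA V314VW, and the progenitor antigen Cd34 at 59.9, 85 and 91.2 CPM with CSF3R T618I and 75, 91 and 86.1 CPM with CEBPA V314VW. The mature T cell marker Cd3e was at 0 counts with CSF3R T618I and 1 count with CEBPA V314VW.

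CPM here are counts per 1000000 of the TMM-scaled library size. Fold changes are log2 ratios of CSF3R T618I over CEBPA V314VW ± SE, so a positive value is higher with CSF3R T618I. Calls required an adjusted p under 0.05 in edgeR's quasi-likelihood test and a difference beyond 1 log2 unit in either direction. Members of gene lists are counted as higher or lower at an adjusted p under 0.05 whatever the size. By that rule 18.3% of all genes tested were higher and 18.2% lower, the shares to set beside each list.

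Neutrophil, acute phase, STAT-induced and erythroid genes were higher in the cells with the receptor mutant than in those with the transcription factor mutant. Interferon-stimulated genes and a number of stem cell genes were lower. Of 16360 genes tested, 2663 were called, of which 1123 were higher with CSF3R T618I (6.86% of the genes tested) and 1540 were lower (9.41%). At the adjusted p alone, 2989 genes were higher (18.3%) and 2975 were lower (18.2%), so that 50.1% of 5964 were higher. With library totals and no scaling factors, which move the median of all genes by -0.15 log2, 31.9% of such genes were higher, at 1998 higher and 4275 lower. The median log2 fold change over all genes tested was -0.01 in the fit used here. In 20.4% of all genes tested every CSF3R T618I library was above every CEBPA V314VW library, and in 21.4% every one was below. The genes named below for the largest differences were chosen among such genes. Differences were often large, with 312 genes called higher and 394 called lower beyond a log2 fold change of 3, and 114 higher and 148 lower beyond 5. Among strongly expressed genes, 32 had a mean of at least 10 CPM with CSF3R T618I and under 0.5 CPM with CEBPA V314VW, and 18 had the opposite pattern. In bulk RNA, fewer cells of a type and less RNA per cell cannot be told apart, here or in the results that follow.

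**Figure D1:**
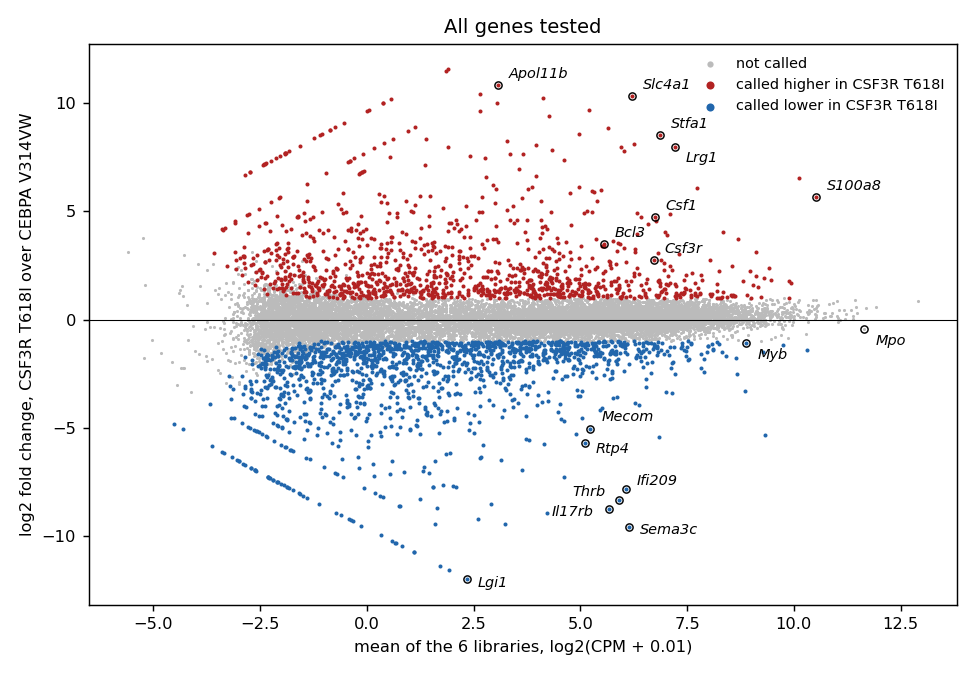
Log2 fold change of CSF3R T618I over CEBPA V314VW (vertical axis) against mean expression over the 6 libraries (horizontal axis, log2 of CPM + 0.01) for the 16360 genes tested, one point per gene. Red points are the 1123 genes called higher with CSF3R T618I, blue points the 1540 called lower, and circles mark named genes, from Slc4a1 and S100a8 at the top to Sema3c and Lgi1 at the bottom.

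Counts assigned to the mouse genes of the oncogenes, Csf3r and Cebpa, differed in opposite directions. Csf3r (chr4:126024550-126044440) was measured at 129.5, 150.4 and 268 CPM in replicates A, B and C of CSF3R T618I, against 23.7, 28.6 and 29.5 CPM with CEBPA V314VW (log2 fold change 2.74 ± 0.23, adjusted p = 1.39e-06). Every CSF3R T618I library was above every CEBPA V314VW library, and empty vector libraries, at 126, 115 and 95.1 CPM, lay above those of CEBPA V314VW. Cebpa (chr7:35119293-35121928) had 138, 146 and 139 CPM with CSF3R T618I, against 177, 187 and 204 CPM with CEBPA V314VW (log2 fold change -0.43 ± 0.083, adjusted p = 0.00144). Its groups did not overlap, but the difference was small, and the empty vector libraries held 138, 137 and 147 CPM. Vector transcripts that align to the mouse gene and transcripts of that gene cannot be told apart in these counts, and Cebpa also overlaps Gm45091 in the annotation.

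The 15 genes with the largest differences higher with CSF3R T618I were mainly products of neutrophils and of red cells. Lrg1 (chr17:56119678-56122001), a secreted leucine-rich glycoprotein of the acute phase, had 327, 224 and 341 CPM with CSF3R T618I, against 2.56, 0.484 and 0.534 CPM with CEBPA V314VW (log2 fold change 7.95 ± 0.60, adjusted p = 4.64e-07). Il1r2 (chr1:40074079-40125231), the decoy receptor that binds interleukin-1 without signaling, had 159, 71.5 and 138 CPM with CSF3R T618I against 0.862, 0.222 and 0.369 CPM with CEBPA V314VW (log2 fold change 7.97 ± 0.57, adjusted p = 3.15e-07). Both genes were highest among the CEBPA V314VW libraries in replicate A, which was still far below every CSF3R T618I library. Stfa1 (chr16:36276951-36285373), a stefin A inhibitor of cysteine proteases, reached 363, 171 and 161 CPM with CSF3R T618I, against 1.64, 0.141 and 0.0821 CPM with CEBPA V314VW (log2 fold change 8.53 ± 0.71, adjusted p = 1.15e-06). Its relatives Stfa2 and Stfa2l1 stood at 28.7, 3.07 and 5.61 CPM and 39, 8.38 and 10.5 CPM with CSF3R T618I, and each was at 0 in all but 1 library of CEBPA V314VW. Counts of this near-identical family on chromosome 16 are uncertain gene by gene, since its members can share reads. With 1 count of Stfa2 over the CEBPA V314VW group, the ratio of CSF3R T618I to CEBPA V314VW was 1710 with a counting interval of 307 to 67600 (exact, 95%).

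Apol11b (chr15:77633946-77643286), a member of the apolipoprotein L family, had 20.4, 17.4 and 12.7 CPM with CSF3R T618I and a single count over the CEBPA V314VW libraries, a ratio of 2510 with a counting interval of 451 to 99300. Tcf21, a basic helix-loop-helix transcription factor, had 12.9, 12 and 12.7 CPM with CSF3R T618I and 2 counts with CEBPA V314VW, a ratio of 924 (256 to 7640). Both were of similar level in all 3 CSF3R T618I libraries. Rtn4rl2, a receptor of the Nogo receptor family, had 53.5, 59.3 and 74.6 CPM with CSF3R T618I against 0.301, 0.101 and 0.0821 CPM with CEBPA V314VW (log2 fold change 8.57 ± 0.32, adjusted p = 2.12e-09). Chil1, a chitinase-like protein, had 45.6, 24.4 and 51.2 CPM with CSF3R T618I against 0.12, 0.242 and 0.164 CPM with CEBPA V314VW (log2 fold change 7.83 ± 0.67, adjusted p = 1.39e-06). The red cell anion exchanger Slc4a1, the globins Hba-a1 and Hba-a2, and the granule genes Mmp9, Retnlg and Ltf complete the 15 and are described with their groups.

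The 15 genes with the largest differences lower with CSF3R T618I coded mainly for receptors, secreted signals and interferon-inducible proteins. Sema3c (chr5:17574281-17730268), a secreted semaphorin, had 0.0826, 0.243 and 0.216 CPM with CSF3R T618I, against 112, 156 and 154 CPM with CEBPA V314VW (log2 fold change -9.54 ± 0.24, adjusted p = 1.68e-10). Il17rb (chr14:29996135-30008896), a subunit of the interleukin-25 receptor, had 0.207, 0.289 and 0.216 CPM with CSF3R T618I against 92.8, 114 and 100 CPM with CEBPA V314VW (log2 fold change -8.71 ± 0.20, adjusted p = 7.32e-11). Thrb (chr14:17660261-18038090), a nuclear receptor for thyroid hormone, had 0.0826, 0.213 and 0.885 CPM with CSF3R T618I against 111, 129 and 119 CPM with CEBPA V314VW (log2 fold change -8.31 ± 0.42, adjusted p = 1.89e-08). All 3 were under 1 CPM in every CSF3R T618I library and abundant in every CEBPA V314VW library. Il17rb overlaps Actr8 in the annotation, and the strand setting of the counting is not given in the sources used here. Lgi1 (chr19:38264536-38312214), a secreted protein known from neurons, had 0 counts in the 3 CSF3R T618I libraries and 7.67, 12.7 and 10 CPM with CEBPA V314VW, at least 542-fold lower with CSF3R T618I when the group is given a floor of 3 counts.

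Rbp4, the plasma carrier of retinol, had 0.0207, 0.0152 and 0.0432 CPM with CSF3R T618I, against 19.5, 18.9 and 18.1 CPM with CEBPA V314VW (log2 fold change -9.42 ± 0.34, adjusted p = 1.88e-09). Tnfsf13b, the B cell survival factor BAFF, had 0.516, 0.183 and 0.281 CPM with CSF3R T618I against 57.5, 44.6 and 43.6 CPM with CEBPA V314VW (log2 fold change -7.25 ± 0.26, adjusted p = 1.86e-09). Mmp12, the macrophage elastase, had 0.248, 0.0456 and 0.194 CPM with CSF3R T618I against 16.7, 13.3 and 7.51 CPM with CEBPA V314VW (log2 fold change -6.34 ± 0.50, adjusted p = 6.83e-07). The CEBPA V314VW replicates were close to each other for Rbp4 and ranged more widely for Mmp12. Aox4, an aldehyde oxidase, Mamdc2 and Lrrn3 had log2 fold changes of -6.37, -5.80 and -5.74, and Lrrn3 lies within the annotated span of Immp2l. The neighbouring Ifi206, Ifi208 and Ifi209 genes, Ifi44 and Crhbp complete the 15 and are described with their groups.

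**Figure D2:**
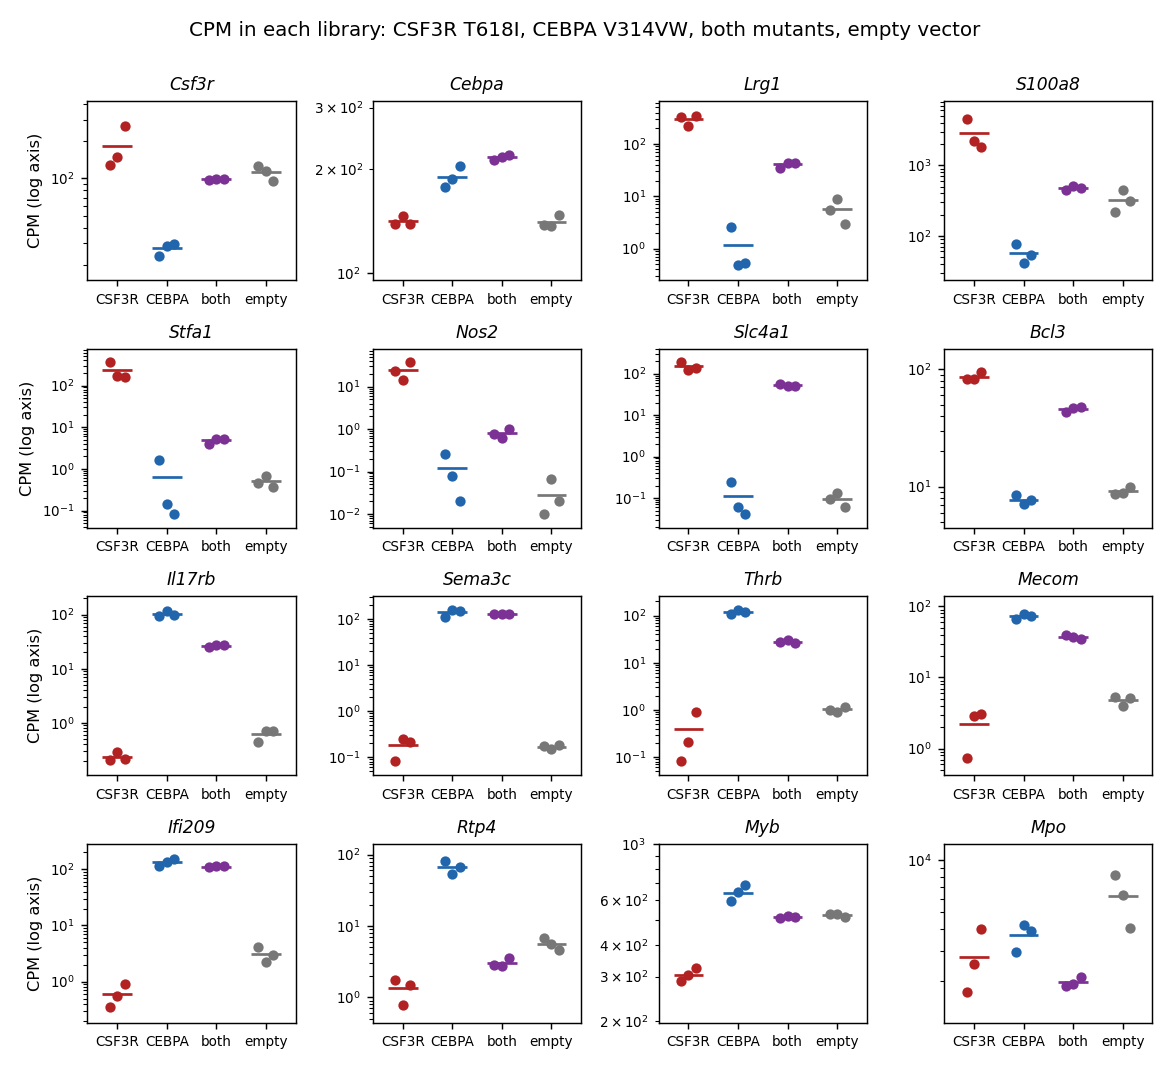
CPM (vertical log axis, a different range in each panel) of 16 genes in each library of CSF3R T618I, CEBPA V314VW, both mutants and empty vector. Points are replicates A, B and C from left to right, horizontal lines are group means, and a value of 0 is drawn at 0.01; the 3 CSF3R T618I and 3 CEBPA V314VW libraries do not overlap except for Mpo.

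Values against empty vector place each difference with one mutant or the other, gene by gene. Both sets of values share the empty vector libraries and are therefore given side by side only. For Sema3c the log2 fold change over empty vector was 0.12 ± 0.38 with CSF3R T618I and 9.67 ± 0.25 with CEBPA V314VW, and for Il17rb it was -1.34 ± 0.24 with CSF3R T618I and 7.37 ± 0.18 with CEBPA V314VW. Crhbp, at -0.17 ± 0.55 with CSF3R T618I and 6.75 ± 0.40 with CEBPA V314VW, likewise differed from empty vector in the CEBPA V314VW cells. For Slc4a1 the values were 10.57 ± 0.35 with CSF3R T618I and 0.26 ± 0.64 with CEBPA V314VW, and for Stfa1 8.85 ± 0.72 with CSF3R T618I and 0.32 ± 0.81 with CEBPA V314VW, so these genes differed from empty vector in the CSF3R T618I cells. A further set was split between the mutants. Lrg1 was at 5.68 ± 0.53 with CSF3R T618I and -2.27 ± 0.52 with CEBPA V314VW, and Ifi209 at -2.38 ± 0.29 with CSF3R T618I and 5.42 ± 0.26 with CEBPA V314VW. Csf3r was at 0.71 ± 0.22 with CSF3R T618I and -2.04 ± 0.23 with CEBPA V314VW. For Ltf, lactoferrin, the difference between the single mutants went with CEBPA V314VW, at 0.82 ± 1.0 with CSF3R T618I and -7.24 ± 1.61 with CEBPA V314VW. Its empty vector libraries held 10.3, 42.3 and 0.469 CPM and varied widely. Genes with few or no counts in a group have fitted values that depend on the fit's prior.

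**Figure D3:**
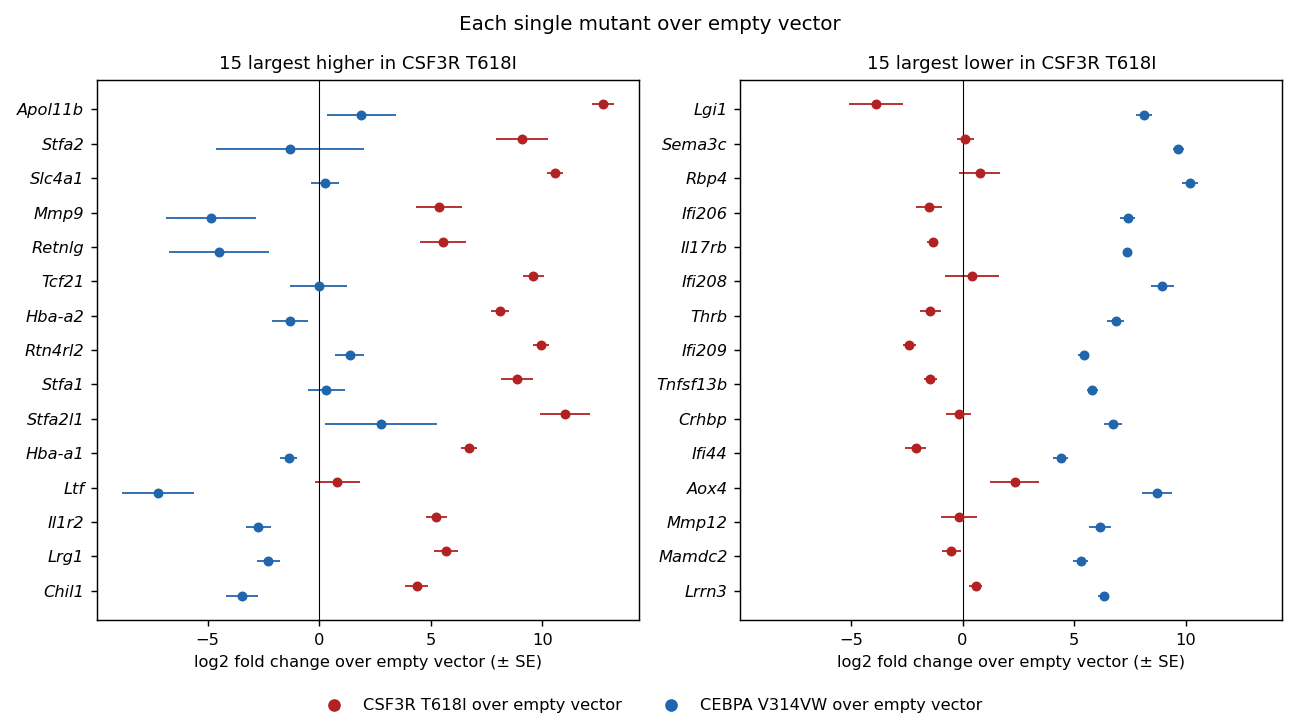
Log2 fold change over empty vector (horizontal axis, ± SE) of CSF3R T618I (red) and of CEBPA V314VW (blue) for the 15 genes with the largest differences in each direction. On the left the red points lie far to the right of the blue ones, and for Ltf the red point is near 0; on the right the blue points lie between 4.39 and 10.19 and all but 1 of the red points between -2.38 and 2.33, Lgi1 being at -3.86.

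Genes induced by JAK/STAT signaling were higher with CSF3R T618I. STAT factors switch on their own inhibitors, the SOCS proteins, and survival and differentiation genes such as the PIM kinases, Bcl3 and the CEBP family. Of 28 members tested, 21 were higher and 4 lower, with a median log2 fold change of 1.05, beside 18.3% and 18.2% of all genes and a median of -0.01. Socs3, the inhibitor that binds the CSF3R cytoplasmic tail, had 136, 129.9 and 156 CPM with CSF3R T618I, against 17.5, 12.6 and 14.6 CPM with CEBPA V314VW (log2 fold change 3.24 ± 0.13, adjusted p = 3.48e-09). Bcl3, a nuclear IκB family protein, had 82.5, 82.8 and 94 CPM with CSF3R T618I against 8.46, 7.11 and 7.68 CPM with CEBPA V314VW (log2 fold change 3.48 ± 0.11, adjusted p = 5.99e-10), and was even in all 3 replicates of each group. Gadd45g, a growth arrest and stress gene, had 213, 151 and 90.3 CPM with CSF3R T618I against 13.2, 7.8 and 8.6 CPM with CEBPA V314VW (log2 fold change 3.94 ± 0.29, adjusted p = 3.54e-07). Pim2 (2.57), Cebpd (2.54), Id1 (2.49), Il4ra (2.26), Junb (2.24) and Cebpb (2.15) were likewise higher, whereas Pim1 had a log2 fold change of 0.21 and did not pass.

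The SOCS genes did not move together. Socs1 (1.07) and Cish (1.02) were higher with CSF3R T618I, while Socs2 was the most strongly lowered member of the list. Socs2, an inhibitor best known from growth hormone signaling, had 23.3, 24.3 and 21.5 CPM with CSF3R T618I, against 256, 223 and 227 CPM with CEBPA V314VW (log2 fold change -3.35 ± 0.11, adjusted p = 9.41e-10). Libraries with empty vector held 32.1, 34.5 and 40.6 CPM of Socs2. Members lower with CSF3R T618I also included Ccnd2 (-0.40) and Myc (-0.39). Myc, the growth-driving transcription factor, had 379.9, 511 and 571 CPM with CSF3R T618I against 615, 645 and 649.5 CPM with CEBPA V314VW (log2 fold change -0.39 ± 0.12, adjusted p = 0.0261). Myc was not called, being within 1 log2 unit. It no longer passed without replicate A of CSF3R T618I (adjusted p = 0.0509) and without replicate B or C of CEBPA V314VW (0.0611 and 0.0633). The same held with only the 6 libraries (0.111). The log2 fold changes were -0.23 without replicate A of CSF3R T618I, -0.38 without replicate B or C of CEBPA V314VW and -0.39 with only the 6 libraries.

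STAT dimers bind a palindrome, searched here as TTCNNNGAA on both strands from 250 bases before to 50 after each gene's start. The word was in 4 of the 21 members of the list that had a window (19%), against 762 of 11088 tested genes (6.87%). It was also in 5 of 25 interferon-stimulated members (20%), a list lower with CSF3R T618I. Among genes called higher with CSF3R T618I it was in 74 of 809 (9.15%), and among genes called lower in 69 of 1007 (6.85%). The stretches of Bcl6 and Socs3 that hold it are shown with 25 bases on either side, because both genes are STAT targets higher with CSF3R T618I. Capitals mark the word, which starts 118 bases before the start of Bcl6 and 154 before that of Socs3. Sequences are from RefSeq, build GRCm38.p6, on the minus strand, at chr16:23988937-23988995 and chr11:117969487-117969545.
Bcl6: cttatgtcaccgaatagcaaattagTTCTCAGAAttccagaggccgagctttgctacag
Socs3: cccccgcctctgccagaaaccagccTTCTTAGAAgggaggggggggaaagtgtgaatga
A match is a description of the letters and does not show that a factor binds there.

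Acute phase and iron-withholding genes, the secreted proteins that rise in inflammation, were higher with CSF3R T618I in 9 of 13 tested members and lower in 1, with a median log2 fold change of 3.71. Saa3, serum amyloid A, had 614, 333 and 301 CPM with CSF3R T618I, against 7.77, 5.52 and 5.34 CPM with CEBPA V314VW (log2 fold change 6.06 ± 0.31, adjusted p = 1.86e-08). Hp, haptoglobin, which binds free hemoglobin, had 869, 625 and 794 CPM with CSF3R T618I against 54.2, 59.1 and 61.9 CPM with CEBPA V314VW (log2 fold change 3.71 ± 0.15, adjusted p = 3.28e-09). Lcn2, which withholds iron from bacteria by binding their siderophores, had 352, 171 and 273 CPM with CSF3R T618I against 9.44, 8.18 and 9.4 CPM with CEBPA V314VW (log2 fold change 4.88 ± 0.28, adjusted p = 5.33e-08). The groups did not overlap for any of the 3 genes, of which Saa3 was named for the size of its difference and Lcn2 after its values were seen. Every CSF3R T618I library was above every CEBPA V314VW library in 9 of the 13 members and every one below in 1, beside 20.4% and 21.4% of all genes. Steap4, a metalloreductase, had 16.3, 7.53 and 24.6 CPM with CSF3R T618I against 0.0401, 0.564 and 0.123 CPM with CEBPA V314VW (log2 fold change 6.04 ± 0.61, adjusted p = 6.82e-06), and C3, the central complement protein, had a log2 fold change of 1.70. Cp, ceruloplasmin, the copper-carrying ferroxidase, was the 1 member lower with CSF3R T618I, at 0.62, 1.06 and 1.51 CPM with CSF3R T618I against 5.01, 6.93 and 7.25 CPM with CEBPA V314VW (log2 fold change -2.59 ± 0.32, adjusted p = 3.94e-05).

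Neutrophil genes formed the list with the largest median difference. Secondary granule and maturation genes are switched on as promyelocytes become neutrophils and mark the later steps of the lineage. Of 43 members tested, 38 were higher with CSF3R T618I and 2 lower, with a median log2 fold change of 4.41. S100a8, a subunit of calprotectin, had 4608, 2182 and 1826 CPM with CSF3R T618I, against 77.2, 41.5 and 53.4 CPM with CEBPA V314VW (log2 fold change 5.65 ± 0.41, adjusted p = 3.51e-07). S100a9, its partner, had 3513, 1575 and 1474 CPM with CSF3R T618I against 38.2, 13.1 and 18.4 CPM with CEBPA V314VW (log2 fold change 6.56 ± 0.57, adjusted p = 1.82e-06). Replicate A was highest for both, and the lowest CSF3R T618I library was still far above the highest CEBPA V314VW library. Ngp, the neutrophilic granule protein, had 296, 58.5 and 192 CPM with CSF3R T618I against 4.03, 11.5 and 10.2 CPM with CEBPA V314VW (log2 fold change 4.41 ± 0.75, adjusted p = 0.000551), and Cd177, a neutrophil surface antigen, had 173, 73 and 248 CPM with CSF3R T618I against 5.65, 6.33 and 6.55 CPM with CEBPA V314VW (log2 fold change 4.74 ± 0.60, adjusted p = 4.82e-05). Cxcr2, the chemokine receptor of mature neutrophils, had 71.8, 48 and 88.2 CPM with CSF3R T618I against 2.38, 2.46 and 1.66 CPM with CEBPA V314VW (adjusted p = 5.21e-08).

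Among the 15 genes with the largest differences, Mmp9, Retnlg and Ltf were uneven among the CSF3R T618I libraries. Mmp9, gelatinase, had 49.8, 6.09 and 49 CPM with CSF3R T618I, against 0, 0.0403 and 0.0411 CPM with CEBPA V314VW (log2 fold change 10.21 ± 1.53, adjusted p = 0.000198). Retnlg, a resistin-like protein of granulocytes, had 37.1, 3.38 and 9.2 CPM with CSF3R T618I and 2 counts over the CEBPA V314VW libraries, a ratio of 1130 (counting interval 312 to 9330). Ltf had 54.1, 6.05 and 33.5 CPM with CSF3R T618I against 0.0601, 0.181 and 0.103 CPM with CEBPA V314VW (log2 fold change 8.06 ± 1.62, adjusted p = 0.00177). In these 3 genes replicate B was the lowest CSF3R T618I library. That their groups did not overlap follows from their choice, since the 15 were taken from genes without overlap. The call of Ltf was lost with limma voom (adjusted p = 0.132), which fits a spread to each group. Ly6g, the antigen of mature neutrophils, was at 6.2, 0.654 and 1.21 CPM with CSF3R T618I against 0.1, 0.0403 and 0.0411 CPM with CEBPA V314VW, and the cathelicidin Camp at 4.05, 0.578 and 0.669 CPM with CSF3R T618I against 0.02, 0.161 and 0.123 CPM with CEBPA V314VW. Summed over the tested members, the list had 14249, 7471 and 8778 CPM with CSF3R T618I, 2289, 2568 and 2488 CPM with CEBPA V314VW and 2268, 3007 and 2006 CPM with empty vector. A large part of the sum with CEBPA V314VW was the single gene Mmp8, described below. S100a8, the most abundant member, was lower with CEBPA V314VW than with empty vector (log2 fold change -2.495 ± 0.355). Similar sums therefore do not mean similar members. Without replicate A of CSF3R T618I, 36 members were higher and 1 lower, with a median of 3.88.

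Mmp8, neutrophil collagenase, and Clec4e, a C-type lectin, were the members lower with CSF3R T618I. Mmp8 had 99.9, 29.6 and 128 CPM with CSF3R T618I, against 688, 989 and 846 CPM with CEBPA V314VW (log2 fold change -3.29 ± 0.42, adjusted p = 5.37e-05), and the empty vector libraries held 4.81, 7.54 and 3.83 CPM. Mmp8 thus differed in the opposite direction to Mmp9, and it weighed far more in the summed list with CEBPA V314VW than with empty vector. Clec4e had a log2 fold change of -0.46, and Chil3, at -0.37, did not pass.

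Primary granule genes, which are made earlier, at the promyelocyte stage, differed less as a list. Not all members of the list code for granule contents. Ms4a3 and Hk3, which had its largest differences higher and lower, do not. Of 16 tested members 7 were higher with CSF3R T618I (43.8%, beside 18.3% of all genes) and 3 lower (18.8%, beside 18.2%). The median log2 fold change was 0.23. Mpo, myeloperoxidase, the most abundant member, had 1737, 2507 and 4003 CPM with CSF3R T618I, against 2954, 4211 and 3887 CPM with CEBPA V314VW (log2 fold change -0.42 ± 0.28, adjusted p = 0.264), and the groups overlapped. Without replicate C of CSF3R T618I it was lower at a log2 fold change of -0.80 (adjusted p = 0.0175). The serine proteases Elane (0.69), Prtn3 (0.84) and Ctsg (1.02) were higher with CSF3R T618I. Ms4a3, a membrane protein of granulocyte-monocyte progenitors, had 1260, 1087 and 979 CPM with CSF3R T618I against 322, 295 and 318 CPM with CEBPA V314VW (log2 fold change 1.83 ± 0.11, adjusted p = 6.17e-08), and Cst7, a cystatin, had 188, 167 and 162 CPM with CSF3R T618I against 64.9, 55 and 58 CPM with CEBPA V314VW (log2 fold change 1.54 ± 0.099, adjusted p = 1.09e-07). Hk3, a myeloid hexokinase, was the most strongly lowered member, at 133, 142 and 189 CPM with CSF3R T618I against 366, 403 and 432 CPM with CEBPA V314VW (log2 fold change -1.37 ± 0.13, adjusted p = 3.46e-06).

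The phagocyte oxidase, which makes superoxide, and the nitric oxide genes were higher with CSF3R T618I in 12 of 15 tested members and lower in 1, with a median log2 fold change of 1.21. Cybb, the catalytic subunit of the oxidase, had 189.6, 148 and 381 CPM with CSF3R T618I, against 10.3, 17 and 15.6 CPM with CEBPA V314VW (log2 fold change 4.07 ± 0.39, adjusted p = 4.12e-06). Its partner Cyba (1.13) and the cytosolic subunits Ncf1 (1.21), Ncf4 (1.62) and Rac2 (0.67) were higher by smaller amounts. Nos2, inducible nitric oxide synthase, had 23.6, 14.3 and 37.2 CPM with CSF3R T618I against 0.261, 0.0806 and 0.0205 CPM with CEBPA V314VW (log2 fold change 7.66 ± 0.54, adjusted p = 2.84e-07), and the libraries with both mutants held 0.751, 0.627 and 1.01 CPM. The Src family kinase Fgr had 29.7, 20 and 42.7 CPM with CSF3R T618I, against 0.18, 0.403 and 0.349 CPM with CEBPA V314VW. The member lower with CSF3R T618I was Hvcn1 (-0.68), the voltage-gated proton channel.

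Interferon-stimulated genes were lower with CSF3R T618I in nearly the whole list. They are switched on by the STAT-containing ISGF3 complex, which binds GAAA repeats in their promoters, and most code for proteins that limit viruses. Of 35 members tested, 34 were lower with CSF3R T618I and 0 higher, with a median log2 fold change of -2.73, beside 18.2% lower and 18.3% higher over all genes. The count of members higher was also 0 at an unadjusted p under 0.05 in edgeR, and 0 with DESeq2 and with limma voom. Rtp4, a chaperone of membrane receptors, had 1.76, 0.776 and 1.49 CPM with CSF3R T618I, against 80.9, 54.2 and 66.6 CPM with CEBPA V314VW (log2 fold change -5.67 ± 0.28, adjusted p = 1.74e-08). Ifit1, which binds viral RNA, had 0.475, 0.472 and 0.799 CPM with CSF3R T618I against 30.9, 20.9 and 25.5 CPM with CEBPA V314VW (log2 fold change -5.48 ± 0.31, adjusted p = 4.28e-08). Irf7, the transcription factor that amplifies type I interferon, had 5.33, 3.48 and 5.2 CPM with CSF3R T618I against 99.7, 68.5 and 80.2 CPM with CEBPA V314VW (log2 fold change -4.15 ± 0.20, adjusted p = 1.41e-08). In all 3 genes the highest CSF3R T618I library was more than an order of magnitude below the lowest CEBPA V314VW library.

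Oasl2 (-4.55), Usp18 (-4.28), Cmpk2 (-3.60), Oas3 (-3.81), Xaf1 (-3.82) and Dhx58 (-2.73) were also lower with CSF3R T618I. Ifi44 had 0.351, 0.0304 and 0.237 CPM with CSF3R T618I, against 19.6, 14.2 and 18.7 CPM with CEBPA V314VW (log2 fold change -6.49 ± 0.42, adjusted p = 1.21e-07). Ifit3b had 0 counts with CSF3R T618I, at least 35-fold lower than with CEBPA V314VW, and its reads can be shared with Ifit3. Isg20 (-0.29) was the 1 member that did not pass. Among the factors of ISGF3 themselves, Irf9 was at 21.1, 19.8 and 22.4 CPM with CSF3R T618I against 74.7, 72.3 and 73.3 CPM with CEBPA V314VW (log2 fold change -1.80 ± 0.10, adjusted p = 4.08e-08), and Stat2 had a log2 fold change of -0.63. The receptor chains Ifnar1 (-0.36) and Ifnar2 (-0.22) did not pass.

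Summed CPM of the list were 451, 409 and 498 with CSF3R T618I, 1678, 1479 and 1665 with CEBPA V314VW, 451, 429.5 and 470.1 with both mutants and 695, 578 and 559 with empty vector. The CEBPA V314VW libraries stood above those of every other group, including the libraries with both mutants. The Ifi200 genes are a cluster of interferon-inducible DNA sensors on chromosome 1. Of these, Ifi206, Ifi208 and Ifi209 are given because they were among the 15 largest differences lower with CSF3R T618I. The cluster was not counted as a list, so its other genes are not described. Ifi209 (chr1:173630917-173647928) had 0.351, 0.548 and 0.907 CPM with CSF3R T618I, against 114, 136 and 151 CPM with CEBPA V314VW (log2 fold change -7.80 ± 0.30, adjusted p = 3.19e-09), and 110.4, 112 and 114 CPM with both mutants, where the highest library was just above the lowest of CEBPA V314VW. Ifi206 (chr1:173468485-173491041) had 0.207, 0.0152 and 0.0216 CPM with CSF3R T618I against 40.2, 34.1 and 37.3 CPM with CEBPA V314VW (log2 fold change -8.90 ± 0.38, adjusted p = 5.29e-09), and 15.3, 15.4 and 16.8 CPM with both mutants. Ifi208 (chr1:173673675-173698395) had 0.0207, 0 and 0.108 CPM with CSF3R T618I against 17.9, 13.7 and 12.9 CPM with CEBPA V314VW (log2 fold change -8.53 ± 0.51, adjusted p = 6.15e-08), and 8.61, 10 and 9.39 CPM with both mutants. For Ifi206 and Ifi208 every CEBPA V314VW library was above those with both mutants. These 3 genes are similar in sequence and can share reads.

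The core of the interferon element was searched as GAAANNGAA on both strands in the same promoter windows, counting overlapping matches. The word was in 15 of the 25 members with a window (60%), against 824 of 11088 tested genes (7.43%). Among genes called lower with CSF3R T618I it was in 120 of 1007 (11.9%), and among genes called higher in 76 of 809 (9.39%). Of the 4 members that hold 3 matches, the stretches of Ifit1, Ifit3 and Isg15 are shown as examples, and Ifit3b is the member not shown. Capitals mark the words, which appear as their reverse complement where the match is on the opposite strand. They begin 109, 103 and 84 bases before the start of Ifit1 (chr19:34640755-34640838, plus strand), 155, 121 and 102 before that of Ifit3 (chr19:34583349-34583460, plus strand) and 78, 72 and 66 before that of Isg15 (chr4:156200851-156200921, minus strand).
Ifit1: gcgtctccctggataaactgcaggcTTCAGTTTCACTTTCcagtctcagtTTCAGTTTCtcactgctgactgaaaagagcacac
Ifit3: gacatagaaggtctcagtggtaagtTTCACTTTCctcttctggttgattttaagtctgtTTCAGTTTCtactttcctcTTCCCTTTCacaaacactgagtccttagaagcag
Isg15: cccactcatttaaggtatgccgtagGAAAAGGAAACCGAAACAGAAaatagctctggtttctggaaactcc
Log2 fold changes of the 3 genes were -5.48, -4.91 and -2.25. Irf7 (-4.15), Oasl1 (-4.02) and Xaf1 (-3.82) had no match in their windows, which says only that these letters are not there.

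Genes of stem cells and early progenitors were lower with CSF3R T618I in 19 of 35 tested members (54.3%, beside 18.2% of all genes). They were higher in 8 (22.9%, beside 18.3%), with a median log2 fold change of -0.50. Mecom, the stem cell transcription factor EVI1, had 0.744, 2.83 and 3.09 CPM with CSF3R T618I, against 66.3, 79 and 73.8 CPM with CEBPA V314VW (log2 fold change -5.03 ± 0.36, adjusted p = 2.8e-07). Hlf, a transcription factor of stem cells, had 11.2, 14.1 and 18.1 CPM with CSF3R T618I against 96.5, 86.7 and 92.3 CPM with CEBPA V314VW (log2 fold change -2.67 ± 0.15, adjusted p = 3.45e-08). Crhbp, a binding protein of corticotropin-releasing hormone, had 0.434, 0.137 and 0.0432 CPM with CSF3R T618I against 27.3, 25.3 and 21.1 CPM with CEBPA V314VW (log2 fold change -6.92 ± 0.40, adjusted p = 4.97e-08). The groups did not overlap in any of these genes. For Crhbp that follows from its choice, while Mecom was named for the size of its difference and Hlf after its values were seen. Every CSF3R T618I library was below every CEBPA V314VW library in 21 of the 35 members and every one above in 8, beside 21.4% and 20.4% of all genes. Replicate A was the lowest CSF3R T618I library for Mecom and Hlf. Angpt1 (-1.87), Sox4 (-1.94), Flt3 (-2.14), Kit (-1.44) and Meis1 (-0.83) were lower as well. Myb, a transcription factor of progenitor growth, had 288, 305 and 324 CPM with CSF3R T618I against 598, 648 and 687 CPM with CEBPA V314VW (log2 fold change -1.08 ± 0.083, adjusted p = 5.32e-07).

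Some genes of the same list were higher, in a share not far from that of all genes. Prom1, the antigen CD133, had 69.5, 75.1 and 157 CPM with CSF3R T618I, against 5.27, 8.4 and 10.3 CPM with CEBPA V314VW (log2 fold change 3.65 ± 0.33, adjusted p = 2.66e-06). Slamf1, the antigen CD150, had a log2 fold change of 3.32. Cd34 (-0.09), Gata2 (-0.11), Lmo2 (-0.15) and Runx1 (-0.26) did not pass. Of 18 HOX, MEIS and PBX genes tested, 6 were lower (33.3%, beside 18.2% of all genes) and 3 higher (16.7%, beside 18.3%), with a median of -0.44. Only 1 was higher without replicate A of CSF3R T618I (median -0.29), without replicate B of CEBPA V314VW (-0.24) and with only the 6 libraries (-0.17). Hoxb6, at -3.24, had the largest difference but lost its call with limma voom. Hoxa9, a HOX gene often raised in leukemia, had 47.4, 48.1 and 44.2 CPM with CSF3R T618I against 64.6, 63 and 66.6 CPM with CEBPA V314VW (log2 fold change -0.47 ± 0.083, adjusted p = 0.000639).

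Transcription factors of the myeloid lineages were higher with CSF3R T618I in 13 of 32 tested members and lower in 8, with a median log2 fold change of 0.20. Leaving out 1 library moved the median between 0.08 (without replicate A or B of CEBPA V314VW) and 0.37 (without replicate B of CSF3R T618I). Cebpb, which takes over granulocyte production in emergencies, had 370, 307 and 278 CPM with CSF3R T618I, against 79.8, 64 and 71.5 CPM with CEBPA V314VW (log2 fold change 2.15 ± 0.13, adjusted p = 8.24e-08). Cebpd had 98.5, 84.2 and 80.7 CPM with CSF3R T618I against 16.9, 13 and 15.2 CPM with CEBPA V314VW (log2 fold change 2.54 ± 0.12, adjusted p = 1.21e-08), and Cebpe, needed for secondary granules, had 57.3, 45.7 and 52.5 CPM with CSF3R T618I against 22.5, 16.5 and 21.3 CPM with CEBPA V314VW (log2 fold change 1.37 ± 0.13, adjusted p = 4.76e-06). Spi1, the factor PU.1, had 428, 392 and 439 CPM with CSF3R T618I against 190.3, 151 and 162 CPM with CEBPA V314VW (log2 fold change 1.32 ± 0.098, adjusted p = 3.96e-07). The 3 CEBP genes were higher in every CSF3R T618I library, while Cebpg, at 0.11, did not pass. Irf8, which directs progenitors toward monocytes, was the member with the largest difference lower, at 16.9, 15.1 and 20.7 CPM with CSF3R T618I against 45.4, 50.3 and 50.7 CPM with CEBPA V314VW (log2 fold change -1.47 ± 0.13, adjusted p = 2.62e-06).

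Monocyte and macrophage genes were split, with 8 of 22 tested members higher, 8 lower and a median log2 fold change of -0.02. Leaving out 1 library moved that median between -0.46 (without replicate A of CSF3R T618I) and 0.30 (without replicate B of CSF3R T618I), and 5 members were lower without replicate C of CEBPA V314VW or with only the 6 libraries. Ly6c2, an antigen of inflammatory monocytes and their progenitors, had 58, 31.7 and 43.9 CPM with CSF3R T618I, against 219.5, 259 and 280.3 CPM with CEBPA V314VW (log2 fold change -2.51 ± 0.21, adjusted p = 1.29e-06). F13a1 (-1.40) and Fn1 (-2.38) were lower too. Ccr2, a chemokine receptor, was higher at 145, 166 and 249 CPM with CSF3R T618I against 89.4, 119 and 119.7 CPM with CEBPA V314VW (log2 fold change 0.77 ± 0.18, adjusted p = 0.00564), as were Lgals3 (1.57) and Adgre1 (1.37). Csf1r, the macrophage growth factor receptor, had 10.8, 15.6 and 29.9 CPM with CSF3R T618I against 8.42, 13.4 and 12.5 CPM with CEBPA V314VW and did not pass. Of 17 MHC class II and dendritic cell genes tested, 6 were lower and 1 higher, with a median of -0.51. Clec10a, a C-type lectin, had 2.91, 1.58 and 2.35 CPM with CSF3R T618I against 21.9, 26.8 and 25.2 CPM with CEBPA V314VW (log2 fold change -3.44 ± 0.19, adjusted p = 3.7e-08), whereas the class II chains H2-Aa, H2-Ab1 and H2-Eb1 did not pass.

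Receptors through which myeloid cells sense cytokines were higher with CSF3R T618I in 17 of 33 tested members (51.5%, beside 18.3% of all genes). They were lower in 6 (18.2%, the same share as over all genes). The median log2 fold change was 0.37 (0.21 without replicate C of CSF3R T618I). Csf2rb, the common beta chain of the interleukin-3, interleukin-5 and GM-CSF receptors, had 776, 816 and 1068 CPM with CSF3R T618I, against 230.5, 208 and 213 CPM with CEBPA V314VW (log2 fold change 2.03 ± 0.14, adjusted p = 1.68e-07). Its close copy Csf2rb2, with which it can share reads, had a log2 fold change of 2.74. Il4ra had 559.5, 747 and 1193 CPM with CSF3R T618I against 133, 201 and 188 CPM with CEBPA V314VW (log2 fold change 2.26 ± 0.25, adjusted p = 1.38e-05), and Il1rl1, the interleukin-33 receptor, had 200.1, 192 and 226 CPM with CSF3R T618I against 31.6, 47.8 and 45.9 CPM with CEBPA V314VW (log2 fold change 2.30 ± 0.23, adjusted p = 6.8e-06). Il7r, better known from lymphoid cells, had 8.9, 9.22 and 11 CPM with CSF3R T618I against 0.441, 0.282 and 0.0411 CPM with CEBPA V314VW (log2 fold change 5.23 ± 0.53, adjusted p = 6.57e-06). Il6st, the shared signaling chain gp130, was lower at 19.6, 23.9 and 41.3 CPM with CSF3R T618I against 49.2, 97.7 and 83.9 CPM with CEBPA V314VW (log2 fold change -1.45 ± 0.27, adjusted p = 0.00108). Il17rb, at -8.71, had the largest difference of the list.

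Receptors for microbes and chemoattractants were higher with CSF3R T618I in 14 of 27 tested members and lower in 3, with a median log2 fold change of 1.03. Tlr13, which senses bacterial ribosomal RNA, had 2.29, 0.7 and 4.32 CPM with CSF3R T618I, against 0, 0.161 and 0 CPM with CEBPA V314VW (log2 fold change 5.42 ± 0.98, adjusted p = 0.000854). Clec5a, a lectin that couples to DAP12, had 437, 392 and 552 CPM with CSF3R T618I against 64.7, 65.8 and 71.3 CPM with CEBPA V314VW (log2 fold change 2.78 ± 0.12, adjusted p = 5.78e-09). Ltb4r1, the leukotriene B4 receptor, had 127, 83.6 and 104 CPM with CSF3R T618I against 10.1, 12.8 and 11.8 CPM with CEBPA V314VW (log2 fold change 3.18 ± 0.18, adjusted p = 4.08e-08), and Tlr2, a receptor for bacterial lipoproteins, had 50.6, 53 and 108 CPM with CSF3R T618I against 11.2, 13.2 and 14.8 CPM with CEBPA V314VW (log2 fold change 2.43 ± 0.27, adjusted p = 1.44e-05). Tlr7, a receptor for single-stranded RNA, went the opposite way at 0.103, 0.183 and 1.21 CPM with CSF3R T618I against 5.39, 9.59 and 9.5 CPM with CEBPA V314VW (log2 fold change -4.09 ± 0.60, adjusted p = 0.000177). Of 27 inflammatory cytokine and chemokine genes, 11 were higher and 6 lower, with a median of 0.43. The median was 0.18 without replicate A of CSF3R T618I, 0.28 without replicate C of CSF3R T618I, 0.24 without replicate B of CEBPA V314VW, 0.14 with only the 6 libraries and 0.17 with the length trend taken out. Csf1, the macrophage growth factor, had 157, 165 and 295 CPM with CSF3R T618I against 6.09, 9.73 and 7.68 CPM with CEBPA V314VW (log2 fold change 4.71 ± 0.32, adjusted p = 1.92e-07). Tnf (2.16), Il10 (2.54) and Il1b (2.07) were higher, while Cxcl3 (-2.56), Ccl6 (-0.89) and Il6 (-0.78) were lower. Ccl5, a chemokine for T cells, was lower too, at 3 counts over the CSF3R T618I libraries and 125 over the CEBPA V314VW libraries, where the ratio of CEBPA V314VW to CSF3R T618I was 45.1 (counting interval 15.1 to 222).

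**Figure D4:**
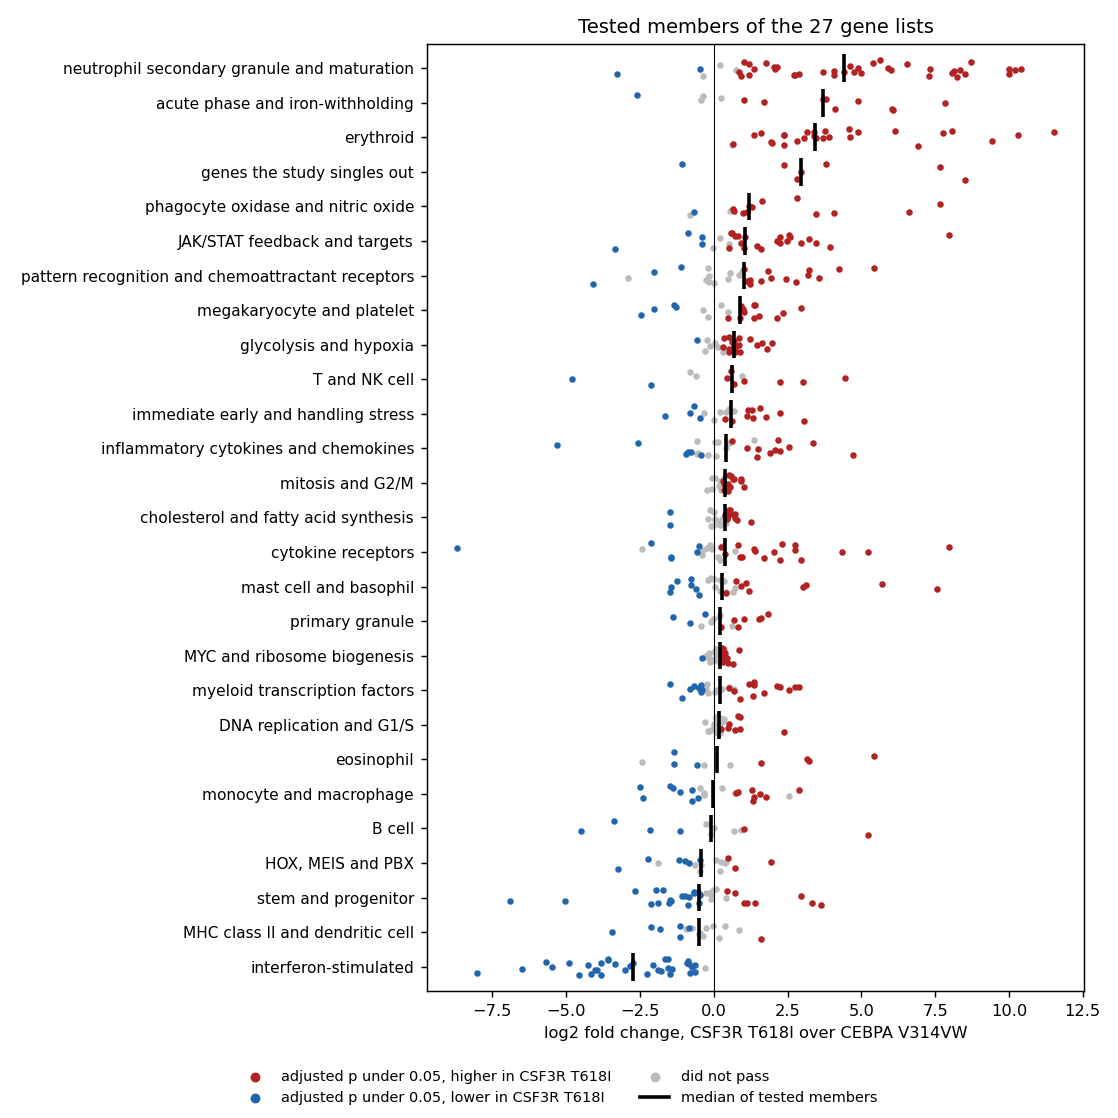
Log2 fold change of CSF3R T618I over CEBPA V314VW (horizontal axis) of every tested member of the 27 gene lists, ordered by median (black bars). Red members were higher and blue members lower at an adjusted p under 0.05, and gray members did not pass; medians run from 4.41 for neutrophil secondary granule and maturation genes to -2.73 for interferon-stimulated genes.

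Erythroid genes were higher with CSF3R T618I in 27 of 28 tested members and lower in 0, with a median log2 fold change of 3.44, and the count lower was also 0 at an unadjusted p under 0.05 in edgeR and 0 with DESeq2 and limma voom. Slc4a1 (chr11:102348824-102366203), the anion exchanger band 3 of the red cell membrane, had 188, 123 and 137 CPM with CSF3R T618I, against 0.24, 0.0604 and 0.0411 CPM with CEBPA V314VW (log2 fold change 10.31 ± 0.34, adjusted p = 9.23e-10). Hba-a1, an alpha globin, had 210.1, 158 and 89.4 CPM with CSF3R T618I against 0.862, 0.504 and 0.308 CPM with CEBPA V314VW (log2 fold change 8.08 ± 0.38, adjusted p = 1.07e-08). Replicate A was the highest CSF3R T618I library for both genes, which belong to the 15 taken from genes without overlap of the groups. Hba-a2 (9.41), Hbb-bs (7.77) and Hbb-bt (3.90) were higher as well, and near-identical globin genes can share reads. Klf1, the master factor of the erythroid program, had 102, 98 and 63.2 CPM with CSF3R T618I against 20.2, 15.7 and 15.3 CPM with CEBPA V314VW (log2 fold change 2.37 ± 0.17, adjusted p = 3.86e-07), and Alas2, which starts heme synthesis in red cells, had 29.5, 21.1 and 19.4 CPM with CSF3R T618I against 0.0401, 0.343 and 0.185 CPM with CEBPA V314VW (log2 fold change 6.93 ± 0.41, adjusted p = 6.15e-08). Trim10 had 0 counts with CEBPA V314VW and was at least 367-fold higher with CSF3R T618I. Tfrc, the transferrin receptor, at 0.60, did not pass.

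Summed CPM of the erythroid list were 4498, 3587 and 3150 with CSF3R T618I, 842, 950.4 and 948 with CEBPA V314VW, 1964, 1985 and 1993 with both mutants and 1286, 1192 and 1149 with empty vector. The CSF3R T618I libraries were the highest of the series. Cells with mature lineage antigens had been removed by the sort. Without replicate A of CSF3R T618I, 27 members were still higher, with a median of 3.18. The part of a changed cell composition in these and the other differences was not tested.

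Of 20 megakaryocyte and platelet genes tested, 12 were higher (60%, beside 18.3% of all genes) and 4 lower (20%, beside 18.2%). The median log2 fold change was 0.90. Selp, P-selectin, had 14.8, 19.3 and 29.1 CPM with CSF3R T618I against 4.95, 5.12 and 4.25 CPM with CEBPA V314VW (log2 fold change 2.14 ± 0.20, adjusted p = 4.2e-06). Pf4, platelet factor 4, was lower at 8.57, 6.65 and 4.21 CPM with CSF3R T618I against 31, 25 and 23.5 CPM with CEBPA V314VW (log2 fold change -2.03 ± 0.24, adjusted p = 2.68e-05). The share of the megakaryocyte list that was lower was thus near that of all genes.

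Mast cell and basophil genes were split as well, with 9 of 26 tested members higher, 7 lower and a median log2 fold change of 0.29. Mcpt8, a basophil protease, had 729, 468 and 414 CPM with CSF3R T618I, against 268, 244 and 246 CPM with CEBPA V314VW (log2 fold change 1.09 ± 0.17, adjusted p = 0.000329). Prss34, another basophil protease, went the opposite way at 399, 309 and 279.5 CPM with CSF3R T618I against 1025, 868 and 872 CPM with CEBPA V314VW (log2 fold change -1.49 ± 0.15, adjusted p = 8.75e-06), and Cpa3, the mast cell carboxypeptidase, had 249.9, 184 and 228 CPM with CSF3R T618I against 302, 362 and 339.8 CPM with CEBPA V314VW (log2 fold change -0.60 ± 0.16, adjusted p = 0.011). Each of these 3 genes was abundant in both groups. Mcpt1, a mucosal mast cell protease, was nearly silent with CEBPA V314VW, at 12.8, 11.4 and 7.41 CPM with CSF3R T618I against 0.16, 0 and 0 CPM with CEBPA V314VW (log2 fold change 7.55 ± 0.57, adjusted p = 5.21e-07). Among 10 eosinophil genes 4 were higher and 3 lower, with Prg2, the major basic protein, at 200, 121 and 99.5 CPM with CSF3R T618I against 11.9, 16.2 and 19.5 CPM with CEBPA V314VW (log2 fold change 3.14 ± 0.31, adjusted p = 5.05e-06). Epx, eosinophil peroxidase, had 14.8, 11.7 and 24.7 CPM with CSF3R T618I against 2.42, 17.1 and 15.6 CPM with CEBPA V314VW, overlapped between the groups and did not pass. The median of the eosinophil list was 0.10 in the fit used here and changed sign with library totals (-0.06), without replicate C of CSF3R T618I (-0.13) and without replicate A of CEBPA V314VW (-0.22), where 5 members were lower.

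Lymphoid lists rested on few genes, since 9 of 20 B cell genes and 12 of 24 T and NK cell genes were too low to test. Of 11 B cell genes 2 were higher (18.2%, beside 18.3% of all genes) and 4 lower (36.4%, beside 18.2%), the largest difference lower being that of the recombinase gene Rag2 (-4.49). Dntt, terminal transferase of early lymphoid cells, had 0.62, 0.122 and 0.302 CPM with CSF3R T618I, against 4.75, 3 and 2.85 CPM with CEBPA V314VW (log2 fold change -3.39 ± 0.44, adjusted p = 5.69e-05), and Cd24a was higher at 494, 368 and 352 CPM with CSF3R T618I against 209, 181 and 209.9 CPM with CEBPA V314VW (log2 fold change 1.02 ± 0.13, adjusted p = 5.57e-05). Of 12 T and NK cell genes 7 were higher and 2 lower, and 4 were higher without replicate A of CSF3R T618I, without replicate B or C of CEBPA V314VW, with limma voom, with library totals and with only the 6 libraries. Prf1, perforin, was higher, at 56 counts over the CSF3R T618I libraries and 2 over the CEBPA V314VW libraries, a ratio of 25.9 (counting interval 6.84 to 219). Klrb1c, an NK cell receptor, was lower (-4.80). Gzmb, granzyme B, which mast cells also make, had 219, 265 and 367 CPM with CSF3R T618I, against 21.7, 34 and 48.1 CPM with CEBPA V314VW (log2 fold change 3.04 ± 0.27, adjusted p = 1.81e-06).

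**Figure D5:**
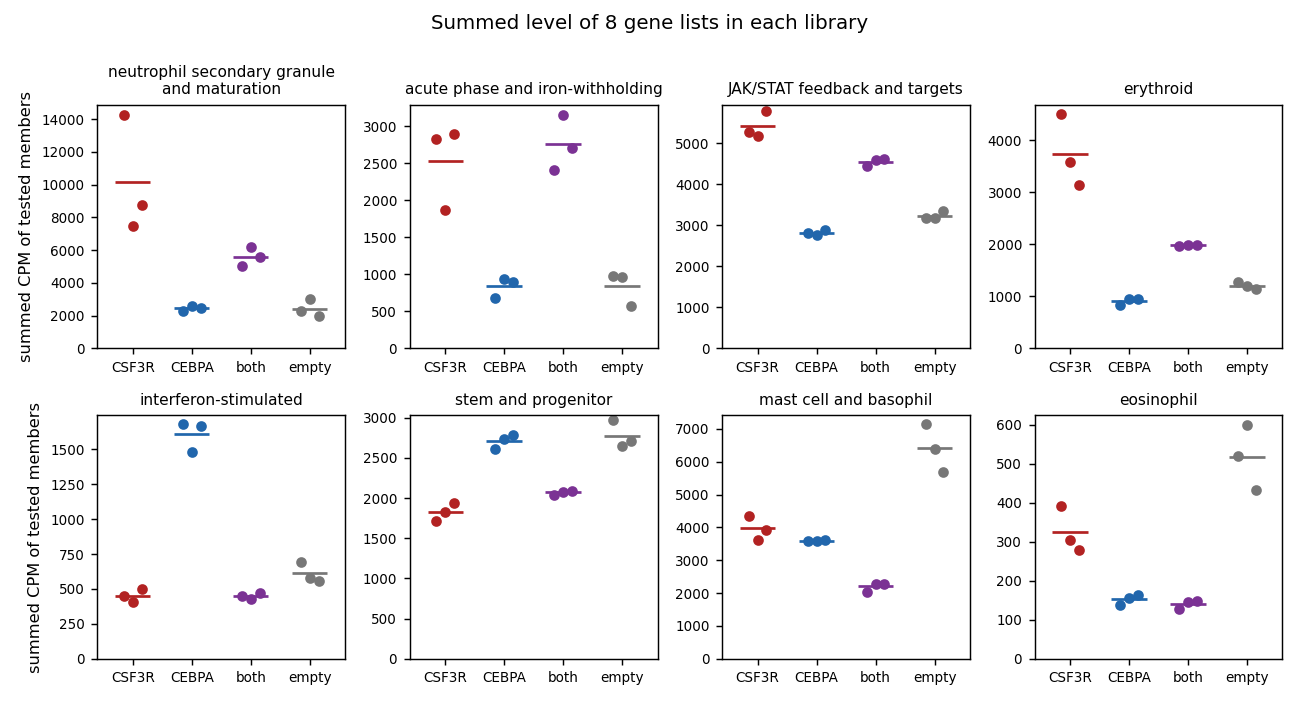
Summed CPM of the tested members of 8 gene lists (vertical axes, each from 0) in every library of CSF3R T618I, CEBPA V314VW, both mutants and empty vector. Points are replicates A, B and C from left to right and lines are group means; neutrophil, acute phase, JAK/STAT and erythroid sums are higher in all CSF3R T618I than in all CEBPA V314VW libraries, and interferon-stimulated sums are lower, at 409 to 498 CPM with CSF3R T618I against 1479 to 1678 CPM with CEBPA V314VW.

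Genes of cell division differed little by size. Of 26 mitosis and G2/M genes tested, 15 were higher with CSF3R T618I and 0 lower, with a median log2 fold change of 0.39. Aurka, a mitotic kinase, had 301, 325 and 345 CPM with CSF3R T618I, against 165, 167 and 175 CPM with CEBPA V314VW (log2 fold change 0.94 ± 0.081, adjusted p = 1.44e-06), and Mki67 had a log2 fold change of 0.70. Of 28 DNA replication and G1/S genes, 8 were higher and 0 lower, with a median of 0.17, and the MCM helicase genes Mcm2 to Mcm7 did not pass. E2f2, a transcription factor of the E2F family, stood apart at 137, 124 and 144 CPM with CSF3R T618I against 27.4, 24.9 and 25.2 CPM with CEBPA V314VW (log2 fold change 2.38 ± 0.096, adjusted p = 3.28e-09). In both lists the count lower was also 0 at an unadjusted p under 0.05 in edgeR and 0 with DESeq2 and limma voom. Without replicate C of CSF3R T618I, 2 mitosis genes and 4 replication genes were lower.

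Of 28 glycolysis and hypoxia genes, 21 were higher with CSF3R T618I and 1 lower, with a median log2 fold change of 0.68. Slc2a3, the glucose transporter GLUT3, had 129, 152 and 258 CPM with CSF3R T618I, against 43.9, 57 and 51.7 CPM with CEBPA V314VW (log2 fold change 1.82 ± 0.24, adjusted p = 7.49e-05), and Slc16a3, a lactate exporter, had 190, 198 and 285 CPM with CSF3R T618I against 59.1, 80.3 and 75 CPM with CEBPA V314VW (log2 fold change 1.65 ± 0.20, adjusted p = 3.65e-05). Ldha, lactate dehydrogenase, differed by 0.53 and Pdk1, which holds back pyruvate oxidation, by -0.58. Of 24 MYC and ribosome biogenesis genes 10 were higher and 1 lower, with a median of 0.21. That count depended on the fit, with 5 higher without replicate B of CSF3R T618I or without replicate B or C of CEBPA V314VW, 3 with only the 6 libraries, 5 with no filter and 2 with library totals. Without replicate C of CSF3R T618I 6 of the list were lower.

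Of 27 cholesterol and fatty acid genes 11 were higher and 2 lower, with a median of 0.38. Without replicate C of CSF3R T618I 4 were lower and the median was 0.14, and it was 0.21 without replicate A of CEBPA V314VW. Hmgcs1, HMG-CoA synthase, had 119, 127 and 151 CPM with CSF3R T618I, against 326, 371 and 404 CPM with CEBPA V314VW (log2 fold change -1.47 ± 0.11, adjusted p = 3.58e-07). Fdft1 (0.80) and Mvk (0.71) were higher. Immediate early and handling stress genes, which can respond to sorting, were higher with CSF3R T618I in 10 of 20 (50%, beside 18.3% of all genes). They were lower in 4 (20%, beside 18.2%), with a median of 0.57 (0.37 without replicate A of CSF3R T618I). Junb had 534, 503 and 465 CPM with CSF3R T618I against 117, 96.9 and 104 CPM with CEBPA V314VW (log2 fold change 2.24 ± 0.097, adjusted p = 5.36e-09), and Zfp36, which destabilizes cytokine mRNAs, had 97, 82.2 and 87.2 CPM with CSF3R T618I against 27.6, 25 and 24.7 CPM with CEBPA V314VW (log2 fold change 1.79 ± 0.097, adjusted p = 2.76e-08). Jun (-0.80), Egr1 (-0.67) and Nr4a2 (-1.65) were lower, and Fos (0.52) and Atf3 (0.20) did not pass.

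The study singles out 7 genes, of which 6 were higher with CSF3R T618I and 1 lower. They were singled out at least in part on these samples, so their count is not independent evidence of a direction. Nos2 had a log2 fold change of 7.66, Stfa1 of 8.53 and E2f2 of 2.38. Pla2g7, which degrades platelet-activating factor, had 14.6, 4.97 and 10.5 CPM with CSF3R T618I, against 1.34, 0.443 and 0.369 CPM with CEBPA V314VW (log2 fold change 3.79 ± 0.52, adjusted p = 9.56e-05). Bcl6, a transcriptional repressor, had 9.34, 7.62 and 11.7 CPM with CSF3R T618I against 1.26, 1.09 and 1.35 CPM with CEBPA V314VW (log2 fold change 2.95 ± 0.19, adjusted p = 1.44e-07). Myb, at -1.08, was the 1 member lower.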

How the data were processed

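RNA was sequenced from sorted lineage-negative bone marrow cells, with cDNA made by a low-input kit that amplifies by PCR. By the study's methods and the submitters' processing notes, the authors trimmed reads with Trimmomatic, aligned them with STAR to mm10 and tested with DESeq2. The deposited table holds unnormalized read counts, with genes in lines and 1 column per library. Which program, annotation and strand setting made the counts was not stated in the sources used here. The table held 51918 lines, of which 6 repeats with identical counts were dropped, and 21876 genes had no count in any library. Every column matched a library. Gene positions are from GENCODE M21, on mm10. Counts ranged from 44210071 to 67431235 per library, and counting intervals and floors (3 counts over a group) cover counting error only.

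From these counts, edgeR 4.0.16 in R 4.3.3 fitted 4 group means to all 12 libraries (TMM scaling, default expression filter by group, robust quasi-likelihood F test), and CSF3R T618I was contrasted with CEBPA V314VW over 16360 genes. Benjamini-Hochberg adjustment ran over all genes tested, and p-values measure the spread between these samples, which the submitters call biological replicates. Standard errors are the size of the log2 fold change divided by the root of F. Data were simulated for this comparison with 16360 genes. Of 100 genes changed by 1 log2 unit 87% were recovered, and of 100 changed by 2 log2 units 99%. Recovery required an adjusted p under 0.05 in the right direction whatever the size, and 14 of the 200 genes that passed were false. The size threshold of the calls was therefore not tested. Each gene was given 1 spread for all groups, whereas the groups of the data differed in spread. DESeq2 1.42.0, limma 3.58.1 voom, other scalings and filters, the 6 libraries alone, a replicate block, a length correction and the leaving out of each library were alternatives.

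Genes are named by rule: both vector genes; the 15 largest differences per direction among called genes with at least 10 CPM in the higher group, no overlap and no predicted-gene, RIKEN or clone name; per list the 3 largest differences and the most abundant member; and the study's own genes. Members named besides these were chosen after their values were seen, from 27 lists of 677 entries (628 tested). Members and lists were chosen with earlier results of these data known. No set test was run. Promoter windows came from RefSeq on GRCm38.p6, 1 per gene, nearest to its annotated start, for 11088 of 16325 tested symbols. Some list members are counted but their own values are not reported here.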

Additional observations from a re-analysis of the deposited data

How the results depend on the processing

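The direction of every call shared with an alternative stayed the same in all 15 alternatives. That was nearly fixed in advance, since a shared call lies beyond 1 log2 unit in both fits of largely the same counts. Genes called numbered 2663 in the fit reported and 1950 to 3110 under the alternatives, and the counts in each direction stayed within 1.5 times of those reported. At the adjusted p alone, genes higher with CSF3R T618I numbered 1876 with only the 6 libraries compared, against 2989. That fit tested 15625 genes and left out the libraries with both mutants and with empty vector. The coefficient of variation of those groups was 0.0455 and 0.146, below the 0.266 of CSF3R T618I. With limma voom, which fits a spread to each group, 2211 genes were higher. What lowered these counts was not tested. Library totals without scaling moved the median of all genes by -0.15 log2, and 2495 of 2663 calls were shared with it. The fit with replicate letter as a block (replicate block) called 2610 genes, of which 2561 were shared. Equal letters were not taken as pairs, since the labels do not tie them to one animal. Deviations from the group means correlated at 0.254, 0.0509 and 0.285 for equal letters A, B and C. For unequal letters the correlations ran from -0.29 to 0.0901, so those of A and C were the highest. B of CSF3R T618I correlated better with A of CEBPA V314VW (0.0901) than with B. Whether equal letters share a source was not tested. Without 1 library of CSF3R T618I 2546 to 3110 genes were called, and without 1 of CEBPA V314VW 2477 to 2687. List members passing numbered 440, and 381 to 472 under the alternatives. Of 122 named genes none changed sign where it had passed at an adjusted p under 0.05, and at most 7 no longer passed in one alternative. Those that no longer passed in any included Ltf, Myc, Hoxa3, Hoxb6, Tubb1, Nhp2, Npm1 and Ncl. Groups of 3 limit the precision of single genes. Genes with few counts in one group have imprecise fold changes.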

Other observations

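Protein coding genes and long noncoding RNAs were called at similar rates. Of 13104 protein coding genes tested, 964 were called higher with CSF3R T618I and 1250 lower (16.9% called), and of 2254 long noncoding genes 126 were higher and 214 lower (15.1% called). The median annotated transcript length was 2622 bases among genes called higher, 3453 bases among genes called lower and 2980 bases over all genes tested. With each library's length trend taken out, 2667 genes were called, of which 2454 were shared with the fit without it.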
